A study of Arabidopsis thaliana with 16 samples.

Results

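This account covers 38 genes of the 32833 in the deposited count table of the series. The rule that chose them reads only the annotation. A gene on chromosomes 1 to 5 was taken if its description named a 40S, 60S or 60S acidic ribosomal protein, or if its symbol was RPL or RPS followed by a number and capital letters. The description gave 19 genes and the symbol gave the other 19, with no gene found by both. The libraries came from whole Arabidopsis thaliana seedlings at 9 days, untreated, grown on half-strength MS medium containing sucrose. There were 8 genotypes with 2 libraries each: wild type (Col-0), the single mutants nup50c, nup82 and nup136, the double mutants nup50c nup82, nup50c nup136 and nup82 nup136, and nup50c nup82 nup136, called the triple mutant here. The labels do not name the alleles or say whether both libraries of a genotype came from separately grown seedlings, so p-values measure only the spread between these libraries, which may be technical.

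A cytosolic ribosome has a small and a large subunit, each built on ribosomal RNA with one copy of most proteins. In plants nearly every such protein is encoded by a small family of paralogous genes, all in the nucleus. The proteins are imported into the nucleus, assembled with rRNA in the nucleolus, and the subunits leave through nuclear pores. The nuclear basket is the structure on the inner face of the pore, and NUP136 (also called NUP1), NUP82 and NUP50 are among its plant components. Growing tissue uses these genes heavily, and mutants of single paralogs often show narrow, pointed leaves.

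Checked against the protein names in the deposited annotation, 35 of the 38 genes encode cytosolic ribosomal proteins: 12 of the large subunit body, 10 of the small subunit and 13 of the stalk, the flexible arm of the large subunit made of P0, P1, P2 and the plant protein P3. The remaining 3 do not. RPL21C (AT1G35680) encodes bL21c of the plastid ribosome, RPL3P (AT3G17465) encodes uL3m of the mitochondrial ribosome, and AT1G25260 is annotated as a homolog of MRTO4, an assembly factor related to P0. They are kept, since the rule finds them, and are given apart. The choice is also incomplete: the table holds 230 genes whose protein name is that of a cytosolic ribosomal protein, and 196 of them are not among the 38, because their descriptions use the newer uniform protein names. One of the 13 stalk genes, AT5G24510, has its best protein match in Chlamydomonas. RPL16A and RPL16B encode uL5, which many sources call RPL11, and the letters of RPS5A and RPS5B are exchanged in the protein database entry. The members are spread over chromosomes 1, 2, 3, 4 and 5 with 8, 8, 9, 5 and 8 genes, and RPP2A and RPP2B are neighbours on chromosome 2.

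Plant ribosomal protein promoters often carry a telo box (AAACCCTA) near the start and site II elements (TGGGCC or TGGGCT) upstream of it. Each motif was searched on both strands of the 250 bases upstream of the annotated start. The telo box was present in 7 of the 35 cytosolic members (20%), against 3.69% of all tested genes. TGGGCC was present in 19 (54.3%) against 15.4%, and TGGGCT in 17 (48.6%) against 13.5%. At least 1 site II element stood in 23 promoters (65.7%) against 21.2%. The 196 other cytosolic ribosomal protein genes gave like shares, 20.9% for the telo box and 66.8% for site II. The promoters below belong to the 4 genes with the largest called change in the triple mutant, both within and outside the cytosolic ribosome. Capitals mark the motifs. Sequences are the gene's own strand, 5′ to 3′, from the RefSeq TAIR10.1 genome, in which all 38 members have the same start and end as in the deposited TAIR10 annotation.

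RPS10B, small subunit protein eS10, chr5:16610693-16610942, minus strand: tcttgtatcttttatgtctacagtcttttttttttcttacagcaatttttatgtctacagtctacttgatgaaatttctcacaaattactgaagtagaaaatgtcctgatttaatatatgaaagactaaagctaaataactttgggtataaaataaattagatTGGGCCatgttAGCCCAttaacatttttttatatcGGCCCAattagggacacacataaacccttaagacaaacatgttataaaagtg
RPS4B, small subunit protein eS4, chr5:2202114-2202363, plus strand: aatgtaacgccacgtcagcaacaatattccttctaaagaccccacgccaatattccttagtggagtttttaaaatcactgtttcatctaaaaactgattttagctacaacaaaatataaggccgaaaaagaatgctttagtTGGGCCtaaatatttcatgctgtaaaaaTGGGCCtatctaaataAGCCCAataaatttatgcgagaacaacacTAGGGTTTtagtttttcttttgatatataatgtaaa
RPL3P, mitochondrial protein uL3m, chr3:5979695-5979944, minus strand: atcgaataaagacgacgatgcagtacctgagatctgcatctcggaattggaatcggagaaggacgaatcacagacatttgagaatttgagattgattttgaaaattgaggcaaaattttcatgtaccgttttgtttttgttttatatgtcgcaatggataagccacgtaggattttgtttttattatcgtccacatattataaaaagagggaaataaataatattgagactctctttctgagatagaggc
RPL21C, plastid protein bL21c, chr1:13208433-13208682, plus strand: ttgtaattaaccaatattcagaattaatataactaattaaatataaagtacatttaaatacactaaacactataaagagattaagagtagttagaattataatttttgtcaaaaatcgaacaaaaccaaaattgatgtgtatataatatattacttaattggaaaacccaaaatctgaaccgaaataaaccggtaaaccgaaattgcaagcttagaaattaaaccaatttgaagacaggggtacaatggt

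RPS10B held 2 TGGGCC and 1 TGGGCT. RPS4B held 1 telo box, 2 TGGGCC and 1 TGGGCT. Neither motif was found in the window of RPL3P or of RPL21C.

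Libraries held between 37923632 and 46194172 counts. After the low-count filter 22427 genes were tested, with 37 members among them. The remaining member, RPL27AB (AT1G23290), had 0 counts in all 16 libraries. Transcripts of the mutated genes were read first as a check of the labels. NUP50C (AT4G11790) lay between 8.77 and 15.0 CPM in the 8 libraries labelled nup50c and between 38.0 and 47.2 CPM in the others. NUP136 (AT3G10650) lay between 18.6 and 33.9 CPM in the libraries labelled nup136 and between 42.0 and 53.4 CPM in the others. NUP82 (AT5G20200) was called lower in the nup82 single mutant, with 21.4 and 21.7 CPM against 29.5 and 35.0 CPM in wild type. In nup50c nup82 it gave 31.1 and 26.8 CPM, and in nup82 nup136 29.0 and 26.0 CPM, below both wild-type libraries but not called (edgeR adjusted p = 0.15). In the triple mutant it stood at 36.7 and 37.5 CPM, above both wild-type libraries and not called (adjusted p = 0.124). Statements on nup82 below refer to libraries labelled so.

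In wild type the ribosomal protein genes spanned about 3 orders of magnitude. Per kilobase of gene length, 25 of the 38 members stood at 100 CPM or more, 8 between 10 and 100, 4 below 10 and 1 at 0. RPL5B, which encodes the 5S rRNA-binding protein uL18, was highest at 494 ± 1.48 CPM per kb (SD, n = 2). It was followed by RPP0B (460 ± 4.48), the base of the stalk, RPP1C (421 ± 19.4), RPL16B (420 ± 31.7) and RPS4B (372 ± 11.4). RPP1C and RPL16B did not differ beyond their spread. At the low end stood RPL18AA (11.1 ± 0.604), RPP0A (6.22 ± 0.195), RPP2E (0.527 ± 0.442), RPP2C (0.425 ± 0.206) and AT5G24510 (0.385 ± 0.114 CPM per kb), and the last 3 overlapped. The stalk thus held both abundant genes and near-silent copies: RPP2E had between 2 and 36 counts per library and AT5G24510 between 4 and 32.

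**Figure D1:**
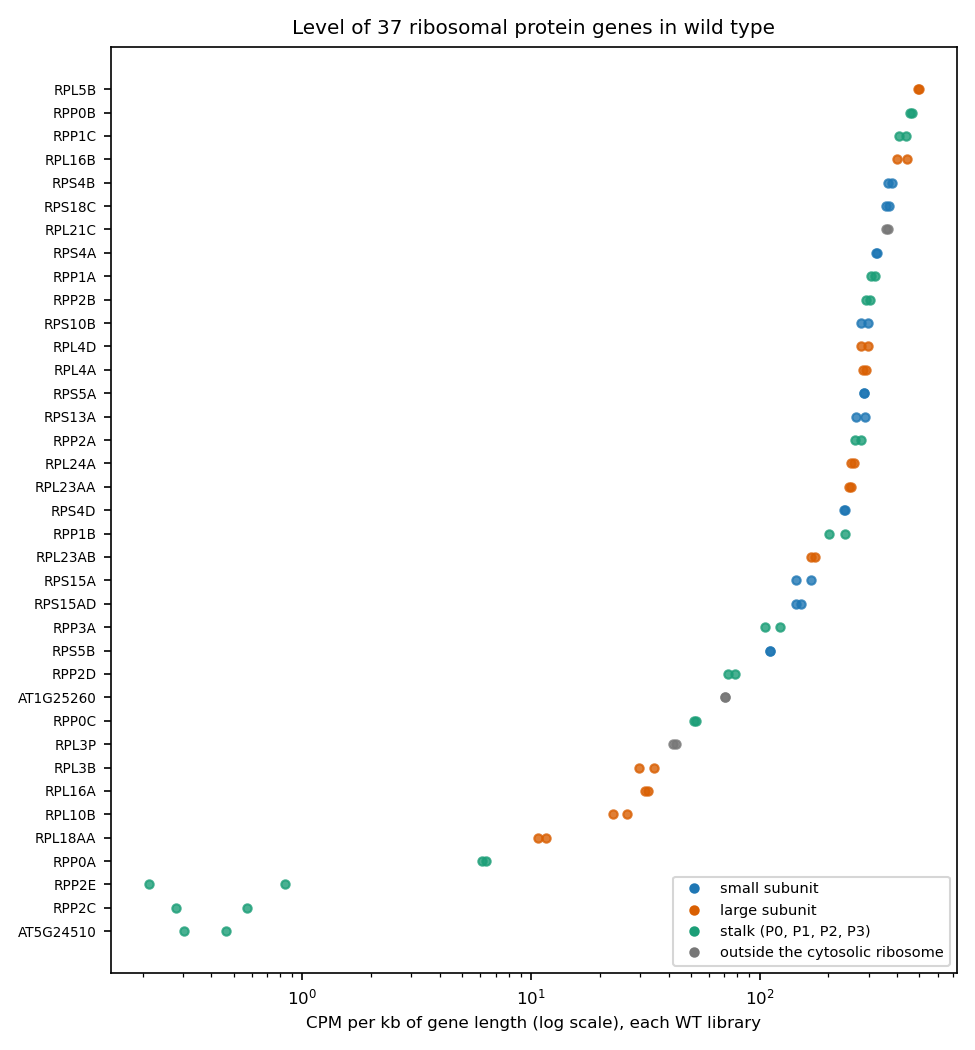
Level of each detected member in the 2 wild-type libraries, as CPM per kb of gene length on a log axis, coloured by role. RPL5B is highest at 494 CPM per kb and 3 stalk genes, RPP2E, RPP2C and AT5G24510, lie below 1.

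The nup50c and nup82 mutants, single or double, gave no called change in any member. In the genotypes carrying nup136, 4 to 8 of 37 members were called higher, where 6.56% to 23.3% of all tested genes were. Most of these calls were lost in at least 1 fit that left out 1 library, as given below. A call here is an adjusted p below 0.05 in edgeR's quasi-likelihood test, adjusted over all 22427 genes. In nup50c 0 of 37 members were called, against 0.923% of all tested genes higher and 0.812% lower. In nup82 0 were called, against 0.856% higher and 0.535% lower, and in nup50c nup82 0, against 0.562% and 0.343%. DESeq2's Wald test also called 0 in these 3 comparisons. At an unadjusted p below 0.05, 3 members were lower in nup50c, 2 higher in nup82 and 1 lower in nup50c nup82. The median log2 fold change of the 34 tested cytosolic members was -0.09, 0.08 and -0.04 in these 3 genotypes. The 95% interval lay within 0.5 of zero on the log2 scale for 31, 30 and 30 of the 31 members with at least 1 CPM.

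In the triple mutant 6 of 37 members were higher and 1 was lower, in a transcriptome where 23.3% of tested genes were higher and 24.3% lower. The members' shares, 16.2% and 2.7%, lay below both. The called rises were 4 small subunit genes, RPS10B, RPS4B, RPS5B and RPS4D, the large subunit gene RPL5B and mitochondrial RPL3P. The one called fall was plastid RPL21C. No cytosolic member was called lower in any mutant against wild type by edgeR. At an unadjusted p below 0.05, 2 or fewer of all 37 members were lower per nup136 genotype. These included plastid RPL21C in nup136, nup50c nup136 and the triple mutant. For 30 of the 31 cytosolic members with at least 1 CPM the 95% interval of the triple mutant change lay within 0.5 on the log2 scale.

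**Figure D2:**
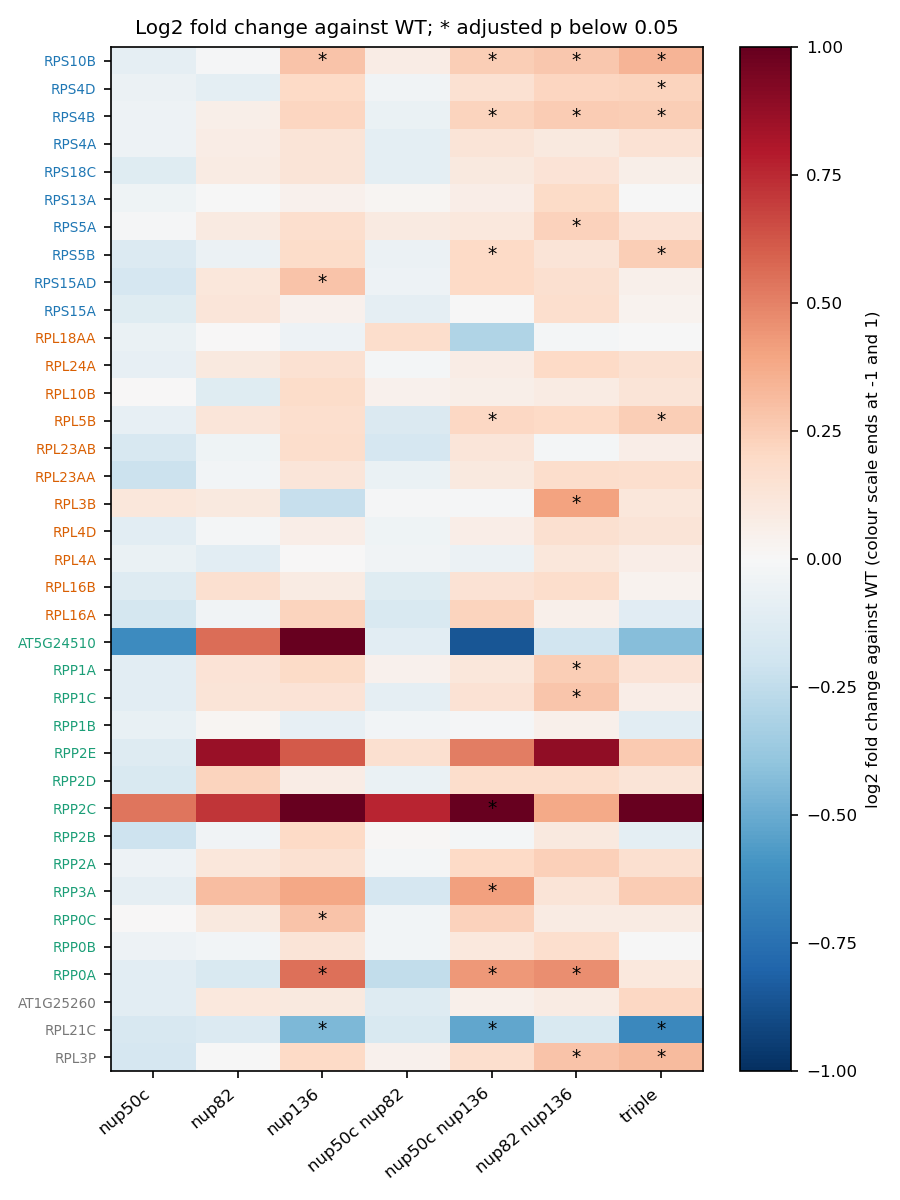
Log2 fold change of 37 members (rows, label colour by role: blue small subunit, orange large subunit, green stalk, grey outside the cytosolic ribosome) in 7 mutants against wild type (columns), with an asterisk where the adjusted p was below 0.05. Asterisks occur only in the 4 columns with nup136, and the strong colours of RPP2C, RPP2E and AT5G24510 belong to genes at about 1 CPM or less.

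RPS10B encodes eS10, a protein near the mRNA entry of the small subunit. Its wild-type libraries gave 281 and 302 CPM, nup50c 268 and 281, nup82 288 and 289.9, and nup50c nup82 307 and 306. The triple mutant gave 370.0 and 368. The nup136 single mutant gave 328 and 381, its double with nup82 340.4 and 362, and its double with nup50c 332 and 359.6. All 8 libraries with nup136 stood above all 8 without it. In the triple mutant the log2 fold change was 0.34 ± 0.08 (SE, edgeR adjusted p = 6.21e-04). It remained called without any 1 library, with adjusted p between 0.00230 and 0.0194. In nup136 alone it was 0.28 ± 0.08 (adjusted p = 0.0119), a call lost without wild-type replicate 1 (adjusted p = 0.152) or nup136 replicate 2 (0.253). Its paralog RPS10C had 287 ± 7.06 CPM in wild type against 330.4 ± 0.303 with all 3 mutations (adjusted p = 0.0694), and RPS10A rose by 0.19 (adjusted p = 0.0418).

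The RPS4 genes encode eS4 of the small subunit, and 2 of the 3 members were called in the triple mutant. RPS4B gave 509.6 and 532 CPM in wild type and 606 and 630.0 in the triple mutant, without overlap. Its log2 fold change was 0.25 ± 0.08 (adjusted p = 0.0102), and the call was lost without wild-type replicate 1 or triple mutant replicate 2 (adjusted p = 0.0871 and 0.0873). RPS4D, at 266 and 263 CPM against 313 and 304, changed by 0.22 ± 0.08 (adjusted p = 0.0197) and lost its call without either library of either genotype (adjusted p between 0.0582 and 0.115). RPS4A stood at 392 ± 3.34 against 434 ± 3.84 CPM, which was not called in the triple mutant (adjusted p = 0.146).

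RPS5A and RPS5B both encode uS7, which sits at the mRNA exit of the small subunit; the promoter of RPS5A is widely used to drive expression in dividing cells, and its mutant has minute-like growth defects. RPS5B had 140.4 and 140.1 CPM in wild type and 167 and 166 in the triple mutant. That change of 0.24 ± 0.07 (adjusted p = 0.00668) held without each library in turn. RPS5A had 334 and 335 CPM in wild type and 366 and 368 in the triple mutant, which was not called (adjusted p = 0.17), and was called in nup82 nup136 at 413 and 372 CPM (0.23 ± 0.08, adjusted p = 0.0407). That call was lost without wild-type replicate 1 (adjusted p = 0.153) or 2 (0.149) or nup82 nup136 replicate 1 (0.261). RPS15AD (uS8) was called in nup136 at 144 and 156 CPM against 126 and 120.1 in wild type (0.28 ± 0.09, adjusted p = 0.0376), but not without wild-type replicate 1 or 2 or nup136 replicate 2 (adjusted p between 0.0991 and 0.257). RPS13A, whose mutant has pointed first leaves, changed by 0.00 in the triple mutant (adjusted p = 0.99).

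**Figure D3:**
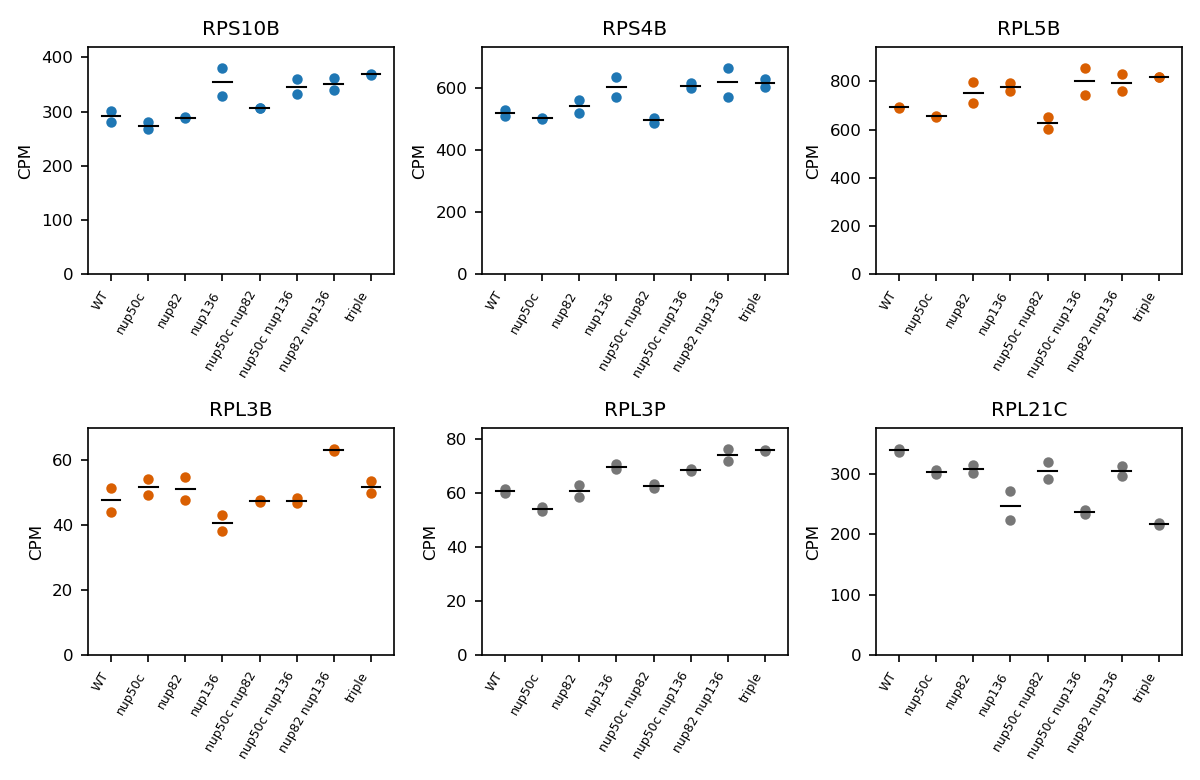
CPM of RPS10B, RPS4B, RPL5B, RPL3B, RPL3P and RPL21C in each library (points) with the mean of the 2 libraries (line), by genotype. RPS10B is higher in all 8 libraries with nup136, and RPL21C is lowest in the triple mutant at 215 and 219 CPM.

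Among large subunit members, RPL5B carries 5S rRNA into the subunit. It gave 694 and 691 CPM in wild type, 604 and 651 in nup50c nup82, and 819 and 819.9 in the triple mutant. The triple mutant change was 0.24 ± 0.08 (adjusted p = 0.0113), and leaving out any 1 of the 4 libraries moved the adjusted p to between 0.0525 and 0.0598. Its paralog ATL5, known as RPL5A, rose by 0.38 (adjusted p = 1.88e-04; 1052 ± 0.792 against 808 ± 23.2 CPM). About 1.42% of the 100-base windows within single exons of RPL5B also occur elsewhere in the genome. The shares for RPL16A and RPS15A were 2.21% and 3.3%, and no window of the other 35 members was repeated. Only exact matches were counted, and exon junctions and exons shorter than 100 bases were not examined. How well reads of paralogs were separated was not tested.

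RPL3B, one of the genes of uL3 beside the peptidyl transferase centre, differed among the nup136 genotypes. Wild type gave 51.5 and 44.2 CPM, nup136 38.4 and 43.1, the triple mutant 53.5 and 49.9, nup50c nup136 46.8 and 48.4, and nup82 nup136 62.8 and 63.6. Only nup82 nup136 was called against wild type (0.40 ± 0.09, adjusted p = 0.00285), and not without wild-type replicate 2 (adjusted p = 0.0872). Both libraries of that genotype stood above all 14 others. The genes of uL4, which lines the exit tunnel, changed little: RPL4A stood at 464 and 481 CPM in wild type against 489.8 and 500.0 with all 3 mutations (0.07, adjusted p = 0.44), and RPL4D changed by 0.13 (adjusted p = 0.12). RPL23AA and RPL23AB, both uL23 at the tunnel exit, changed by 0.17 and 0.07 (adjusted p = 0.094 and 0.48), and RPL10B (uL16) by 0.13 (adjusted p = 0.37).

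Stalk genes showed no call in the triple mutant in either direction among 13 tested by edgeR, with 0 at an unadjusted p below 0.05. Their calls came in the other nup136 genotypes. RPP0A, a weakly expressed copy of the stalk base, had 8.98 and 9.39 CPM in wild type, but 12.3 and 14.7 for nup136, 12.7 and 12.0 for nup50c nup136, and 12.4 and 12.9 for nup82 nup136. The triple mutant stood at 10.6 and 9.18. The gene was called in the first 3 mutants (0.55 ± 0.15, 0.43 ± 0.15 and 0.46 ± 0.15, adjusted p = 0.0134, 0.0368 and 0.0307), whereas the triple mutant overlapped wild type. The call in nup136 was lost without wild-type replicate 1 or 2 or nup136 replicate 2. Those in nup50c nup136 and nup82 nup136 were lost without any 1 of the 4 libraries. With 1 library left out the change of RPP0A ranged from 0.42 to 0.67, 0.38 to 0.47 and 0.43 to 0.50 in these 3 mutants. RPP0C was called in nup136 (85.4 ± 8.30 against 69.9 ± 0.730 CPM; 0.29 ± 0.09, adjusted p = 0.0292), and lost without wild-type replicate 1 or 2 or nup136 replicate 2. RPP3A, the plant P3, was called in nup50c nup136, where the libraries gave 97.8 and 138 CPM against 95.3 and 82.1 (0.41 ± 0.14, adjusted p = 0.0433). Without nup50c nup136 replicate 2 it stood at 0.14 (adjusted p = 0.482). RPP1A and RPP1C were called in nup82 nup136 (0.25 ± 0.09 and 0.28 ± 0.09, adjusted p = 0.0473 and 0.0355), and both calls were lost without any 1 of the 4 libraries (adjusted p from 0.071 to 0.223 and from 0.0749 to 0.219). RPP2C was called in nup50c nup136 at 1.83 and 1.12 CPM against 0.543 and 0.266 (1.84 ± 0.56, adjusted p = 0.0176), a gene of 10 to 79 counts per library, and not without wild-type replicate 2 or nup50c nup136 replicate 1 (adjusted p = 0.163 and 0.143).

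The 3 genes outside the cytosolic ribosome did not move together. AT1G25260 was not called in any mutant against wild type in the main fit. With member counts summed per family, where it stands alone, it was called higher in the triple mutant (0.21 ± 0.09, edgeR adjusted p = 0.0454). RPL21C, in the plastid ribosome, gave 336 and 341 CPM in wild type, 306 and 299 in nup50c, 301 and 314 in nup82 and 319 and 290.4 in nup50c nup82. The triple mutant gave 215 and 219, nup136 224 and 271, its double with nup50c 239 and 233, and its double with nup82 296 and 313. The fall in the triple mutant was -0.64 ± 0.08 (adjusted p = 3.15e-07). It was -0.45 ± 0.08 for nup136 (adjusted p = 2.58e-04) and -0.52 ± 0.08 for nup50c nup136 (adjusted p = 2.42e-05), and each call held without any 1 library. In nup82 nup136 it overlapped the libraries without nup136. That genotype also had the smallest fall of NUP136 among the 4 carriers (-0.74 against -1.21 to -1.31 on the log2 scale), and the part of this in the RPL21C level was not tested. RPL3P, mitochondrial, rose from 60.01 and 61.5 CPM to 75.7 and 75.7 in the triple mutant (0.32 ± 0.08, adjusted p = 0.00111), a call that held without each library, and to 76.3 and 72.0 in nup82 nup136 (0.29 ± 0.08, adjusted p = 0.00759), lost without wild-type replicate 1 (adjusted p = 0.0756) or nup82 nup136 replicate 1 (0.0628).

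Summed over the 35 cytosolic members, wild type held 8126 ± 98.8 CPM (SD, n = 2). The sum was 7641 ± 93.9 in nup50c, 8387 ± 529 in nup82 and 7863 ± 117 in nup50c nup82. With nup136 it was 8833 ± 164 in the triple mutant, 8948 ± 509 in the single mutant, 8847 ± 614 in the double with nup50c and 9210 ± 401 in the double with nup82. Libraries with nup136 ran from 8413 to 9494 CPM and those without it from 7574 to 8761 CPM, so 1 library of nup82, at 8761 CPM, entered the range of the carriers. Both libraries of one genotype often differed as much as genotypes did: the median member was 0.13 higher on the log2 scale in nup82 replicate 2 than in replicate 1, and 32 of 34 members were higher there. The same difference was 0.13 for nup136, with 28 of 34 members higher, and 0.11 for nup50c nup136, with 31 of 34. It was 0.06 for nup82 nup136 and 0.06 for the triple mutant, with 24 of 34 in each. For nup50c it was 0.03 (21 of 34) and for nup50c nup82 0.02 (19 of 34). Wild type went the other way, at -0.02, with 13 of 34 higher in replicate 2. The median over all tested genes differed between the libraries of any genotype by at most 0.01. Members therefore moved together between libraries of one genotype, and were not independent of each other.

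**Figure D4:**
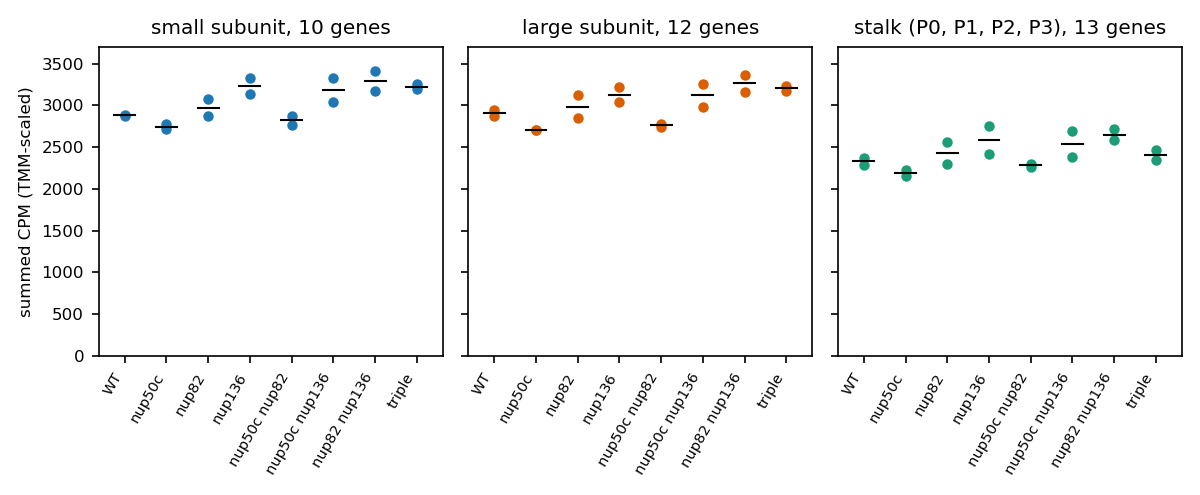
Summed TMM-scaled CPM of the small subunit, large subunit and stalk members in each library (points), with the mean of the 2 libraries (line), by genotype. The libraries carrying nup136 are higher on average in each panel, but the 2 libraries of nup82, nup136 and nup50c nup136 lie far apart.

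The nup136 label could be compared in 4 backgrounds that share no library: wild type, nup50c, nup82 and nup50c nup82. Most cytosolic members had a small positive change. The log2 fold change was above 0 in all 4 backgrounds for 24 of 34 members (70.6%), against 20.4% of all tested genes. For the 177 other cytosolic ribosomal protein genes tested it was 125 (70.6%), and for 46 genes of organelle ribosomes 9 (19.6%). Below 0 in all 4 were 23 of the 46 (50%), against 19.7% of all tested genes. These shares are descriptions, since members moved together between libraries. RPL18AA, a weakly expressed gene annotated as eL20, was the 1 cytosolic member below 0 in all 4, with changes from -0.23 to -0.02. Its protein entry carries the gene name RPL18AD, a label that AT1G29965 also has.

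The share of members raised by nup136 was 43.2% in nup50c, 32.4% in nup50c nup82, 18.9% in nup82 and 10.8% in wild type. The last 2 rest on counts of 7 and 4 calls, each of which became 0 without 1 library. With families summed 1 of 21 was raised in wild type. Differences between these shares were not tested. Compared directly between nup50c and wild type, in a contrast given below, the nup136 effect differed for 0 members by edgeR. Of all tested genes 2.45% had a positive and 2.72% a negative signed difference there. Adding nup136 to nup50c raised 16 members and lowered 1, against 12.9% and 14.1% of all tested genes. Adding it to nup50c nup82 raised 12 and lowered 1, against 22.3% and 24.0%. Adding it to nup82 raised 7, against 8.92%, with 0 lower by edgeR and 0 at an unadjusted p below 0.05, against 12.6%. In wild type nup136 raised 4 and lowered 1, against 6.56% and 7.83%. The median change over the 34 cytosolic members was 0.22, 0.16, 0.11 and 0.17 in that order. RPS10B was the only member called higher in all 4 (0.27 to 0.33); 314 of the 22427 tested genes were. RPP0A was called in 3 (0.35 to 0.62 over the 4), RPS4D in 3 (0.20 to 0.31) and RPL3P in 3 (0.20 to 0.34).

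Among called members, the largest changes on the nup50c background were RPP0A (0.54 ± 0.15, adjusted p = 0.00931), RPP3A (0.50 ± 0.14, 0.016), RPL16A (0.40 ± 0.12, 0.0137), RPS15AD (0.37 ± 0.09, 0.00417) and RPL3P (0.34 ± 0.08, 0.00136), with RPL21C lower by -0.36 ± 0.08 (adjusted p = 0.00146). The count of 16 fell to 5 without nup50c nup136 replicate 2, to 7 without nup50c replicate 1 and to 9 without nup50c replicate 2, and the 1 lower became 2 without nup50c replicate 1. On the nup82 background the largest called were RPP0A (0.62 ± 0.15, adjusted p = 0.00391), RPS4D (0.31 ± 0.08, 0.00487), RPL3B (0.30 ± 0.09, 0.0205), RPL3P (0.29 ± 0.08, 0.0063) and RPS10B (0.28 ± 0.08, 0.00908). That count of 7 fell to 0 without nup82 replicate 1, the library with the lower sum, and to 4 without nup82 nup136 replicate 2. On nup50c nup82 the largest called were RPP3A (0.42 ± 0.14, adjusted p = 0.0223), RPL5B (0.39 ± 0.08, 2.01e-04), AT1G25260 (0.33 ± 0.09, 0.00294), RPS4B (0.31 ± 0.08, 0.00156) and RPS5B (0.30 ± 0.07, 0.00119), with RPL21C at -0.49 ± 0.08 (adjusted p = 1.68e-05). The count of 12 fell to 7 without triple mutant replicate 2. Of these last 13 calls 7 held without each library.

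**Figure D5:**
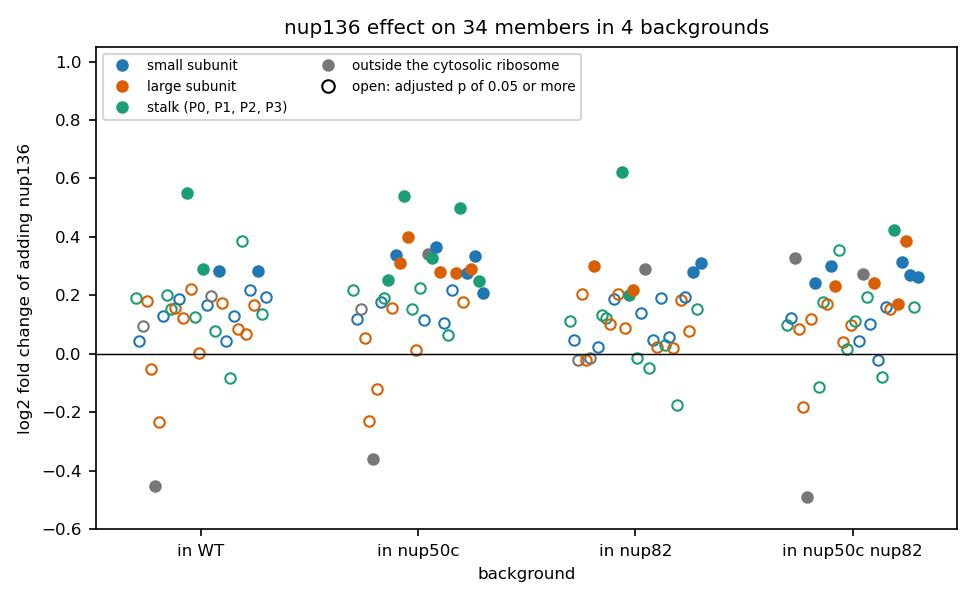
Log2 fold change of adding nup136 to each of 4 backgrounds for 34 members (points, coloured by role; filled where the adjusted p was below 0.05), leaving out the 3 stalk genes at about 1 CPM or less. Most points lie above 0 in each background, and RPL21C is the filled point below 0 in 3 of them.

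Against wild type, nup50c nup136 raised 7 members and lowered 1, where 11.7% and 13.1% of all tested genes were called. Besides RPP2C, RPP0A and RPP3A these were RPS10B (0.25 ± 0.08, adjusted p = 0.0186), RPS4B (0.23 ± 0.08, 0.0326), RPL5B (0.21 ± 0.08, 0.0487) and RPS5B (0.20 ± 0.07, 0.0394). The 7 fell to 1 without nup50c nup136 replicate 2 or wild-type replicate 2, and to 2 without wild-type replicate 1. In nup82 nup136 8 were higher, against 7.95%, and 0 lower by edgeR and at an unadjusted p below 0.05, against 11.3%. Without wild-type replicate 1 or 2 or nup82 nup136 replicate 2 the 8 became 1, 2 and 3. The 4 of nup136 alone became 0, 1, 7 and 0 without wild-type replicate 1, wild-type replicate 2, nup136 replicate 1 and nup136 replicate 2. The 6 of the triple mutant became 3 without wild-type replicate 1 or triple mutant replicate 2.

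Adding nup82 or nup50c to the double mutant without it changed few members. Adding nup82 to nup50c nup136 raised 0 and lowered 1, against 10.1% and 11.9% of all tested genes; 1 member was higher at an unadjusted p below 0.05. The lowered gene was RPL16A, from 30.7 and 32.8 CPM to 24.0 and 26.2 (-0.34 ± 0.12, adjusted p = 0.0404), and the call was lost without any 1 of the 4 libraries; without nup50c nup136 replicate 1 the count lower was 2. Adding nup50c to nup82 nup136 raised 0, with 0 at an unadjusted p below 0.05, and lowered 3, against 14.9% and 14.9%. These were RPL21C (-0.49 ± 0.08, adjusted p = 3.81e-05), RPL3B (-0.29 ± 0.09, 0.019) and RPS13A (-0.19 ± 0.07, 0.0456), and the call of RPL21C held without each library. The 3 became 1 without either library of nup82 nup136 or triple mutant replicate 2. The nup136 effect on the nup50c nup82 background was also tested against that in wild type. It differed for 0 of 37 members by edgeR, against 11.5% and 12.7% of all tested genes, with 1 member higher and 1 lower at an unadjusted p below 0.05. DESeq2 called 1 there. On the nup50c background, in a contrast added after the data had been seen, 0 members differed from wild type by edgeR or at an unadjusted p below 0.05, against 2.45% of all tested genes with a positive and 2.72% with a negative signed difference. On the nup82 background, likewise added, 2 members, RPL21C and RPL3B, had a positive signed difference and 0 a negative one, against 3.44% and 5.33%, with 3 each way at an unadjusted p below 0.05.

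The other 177 cytosolic ribosomal protein genes tested had a median of 0.17 in the triple mutant, against 0.12 for the 34 cytosolic members. Of the 177, 69 were higher (39%) and 2 lower, whereas 5 of the 34 members were higher (14.7%), and 23.3% of all tested genes were higher and 24.3% lower. The 4 with the largest called changes were RPS9C (1.70, 70.7 ± 2.97 against 21.8 ± 0.227 CPM), RPL27A at AT2G32220 (1.04), RPS2D (0.88) and RPL18A1 at AT1G53560 (0.76). Among the members, no family had genes called in opposite directions in the same comparison.

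Of 40 ribosome assembly genes 22 were higher (55%) and 1 lower (2.5%) in the triple mutant, with a median of 0.27, beside the 23.3% and 24.3% of all tested genes. They included NUC-L2, a nucleolin (1.99, 5.16 ± 0.647 against 1.29 ± 0.25 CPM), SWA1 (0.71), BRIX1-1 (0.65) and NMD3 (0.57), the adaptor that exports the large subunit. Of 71 cytosolic translation factor genes 43 were higher (60.6%) and 2 lower (2.82%), among them ELF5A-3, an eIF5A (1.70, 319 ± 8.77 against 98.0 ± 1.16 CPM), At1g09640 (1.37), AT1G76720 (-1.41) and eIF6B (2.64), the last at 0.920 against 0.144 CPM. Among 13 genes of growth signalling, RNA polymerase I and ribosome-associated proteins 7 were higher (53.8%) and 2 lower (15.4%). TOR, the kinase that promotes ribosome production, was lower (-0.77 ± 0.10, adjusted p = 9.54e-07), as was RAPTOR1 (-0.38), named after its value was seen, while its substrate kinases S6K1, listed as PK1 (0.69), and S6K2 (0.47) and the factor TCP20 (0.70) were higher. Values here are log2 fold changes against wild type.

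RPL21C fell beside most other genes of organelle ribosomes. Of 46 tested genes named as plastid or mitochondrial ribosomal proteins, 30 were lower and 6 higher in the triple mutant (median -0.43). Of all tested genes 24.3% were lower and 23.3% higher there. Examples were PRPL11 (-0.78 ± 0.08), RPS9 (-0.72) and PRPS20 (-0.71), with RPS2 higher (0.74). The count lower was 29 for nup136, 28 for nup50c nup136 and 4 for nup82 nup136, against 7.83%, 13.1% and 11.3% of all tested genes. In nup82 nup136 RPL21C itself stood below both wild-type libraries but was not called. A search of the descriptions for 30S, 50S, mitochondrial or chloroplast ribosomal proteins found only 10 genes, with 3 of 9 tested lower and 1 higher in the triple mutant.

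Tissue markers also differed between genotypes, each list in its own pattern. All 8 green leaf markers were lower in the triple mutant, where 24.3% of all tested genes were lower and 23.3% higher. Their summed level fell from between 31543 and 33377 CPM in wild type to between 21446 and 21648. In nup136 it was 26372 and 27855. Of 13 root markers 9 were lower in the triple mutant, with sums of 3145 and 3207 CPM in wild type, 2682 and 2736 in the triple mutant and 2067 and 2155 in the nup136 single mutant. Of 9 dividing cell markers 1 was higher and 2 lower in the triple mutant, shares no larger than those of all tested genes. Their sums were 281 ± 10.5 CPM in wild type, 251 ± 2.62 in the triple mutant and 294 ± 14.8 in the nup136 single mutant. The 3 seed storage genes summed to 1.22 CPM or less in the other 12 libraries, but to 30.3 and 23.6 in the triple mutant, and nup82 nup136 gave 42.9 and 92.0. In whole seedlings a change in the share of cells of a type and a change in RNA per cell cannot be told apart, and the part of these shifts in the members' levels was not tested.

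Counts for members with and without promoter motifs are set side by side here, with no test. Among the 34 tested cytosolic members, 16 of 22 with a site II element and 8 of 12 without one had a nup136 change above 0 in all 4 backgrounds, and 14 and 7 were called higher in at least 1 background, where 30.9% of all tested genes were. For the telo box, 5 of 6 with it and 19 of 28 without it had a change above 0 in all 4. Called higher in at least 1 background were 3 of the 6 and 18 of the 28, beside the same 30.9% of all tested genes. RPS5B, called in the triple mutant, had neither motif in its window, while RPL5B had 1 TGGGCC and 3 TGGGCT and RPS4D 2 and 1.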

How the data were processed

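mRNA libraries from 9-day-old whole seedlings were made with a strand-specific kit, per the labels' protocols. Per the submitters' processing notes the tools were HISAT2 2.0.4 and HTSeq 0.6.1p1 with build TAIR10; whether counting used strand is not given in the sources used here. The authors deposited raw counts per gene in 1 table of 32833 genes and 16 libraries, and gene lengths, an other measure, in base pairs in the same deposited table; their FPKM values were not used. Counts were tested with edgeR 4.0.16 (R 4.3.3), with TMM scaling, the filterByExpr filter (minimum count 10), 1 coefficient per genotype over all 16 libraries (8 residual degrees of freedom), the robust quasi-likelihood F test and Benjamini-Hochberg adjustment over 22427 genes, threshold 0.05. The common biological coefficient of variation was 0.102. CPM values are TMM-scaled; per-length values divide by gene length. The test script was checked on simulated data. Standard errors and 95% intervals come from the same fit.

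The members and gene lists were chosen with earlier results of these data known. Genes named in full were the members called in each comparison (up to 5 in each direction outside the triple mutant), the 5 highest and 5 lowest per length in wild type, the member that failed the filter, and paralogs with known phenotypes. The organelle list based on protein names was added after the description search was seen to miss most such genes. Over all tested genes replicate numbers showed little pairing: correlations of deviations ran from -0.115 to 0.118 (median 0.0169), with 2 of 28 genotype pairs above 0.1. These correlations do not settle it for the members. The median member was higher in replicate 2 in every mutant and lower in it in wild type. Alternatives were DESeq2 size factors, library totals, no filter, DESeq2 1.42.0's Wald test, a replicate block, family sums, fits of only the genotypes compared and each library left out. The 2 contrasts of the nup136 effect that compare the nup50c and nup82 backgrounds with wild type were added after the data had been seen. They were run with the main settings only, under none of these alternatives.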

Additional observations from a re-analysis of the deposited data

Results flagged for a closer look

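The nup136 effect was compared between the nup82 and wild-type backgrounds in a contrast chosen after the values had been seen. For RPL21C, the plastid bL21c gene, it differed by 0.44 ± 0.11 on the log2 scale (edgeR adjusted p = 0.0133): adding nup136 gave -0.45 in wild type and -0.01 in nup82. For RPL3B, a cytosolic uL3 gene, it differed by 0.535 ± 0.13 (adjusted p = 0.00971): adding nup136 gave -0.23 in wild type and 0.30 in nup82. Over all tested genes the signed difference was called above 0 for 3.44% and below 0 for 5.33%; for RPL21C a value above 0 means a fall that was smaller in nup82. On the nup50c nup82 background the difference for RPL3B from wild type was 0.35 (adjusted p = 0.0523). The contrast with the nup82 background was run with the main settings only, with no library left out. With 1 library left out, the RPL3B change from adding nup136 to nup82 ranged from 0.20 to 0.41, and most of these fits lost its call. The RPL21C change from nup136 in wild type ranged from -0.60 to -0.32 and kept its call. The NUP136 transcript itself changed by -1.21 when nup136 was added to wild type and by -0.56 when added to nup82. NUP82 was not called lower in nup82 nup136 against wild type (edgeR adjusted p = 0.15). The part of this in the differences for RPL21C and RPL3B was not tested.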

How the results depend on the processing

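Of 69 member calls, 69 kept direction and call with DESeq2 size factors, library totals, the replicate block and DESeq2's Wald test, 67 without the filter and 57 when only the genotypes compared were fitted; leaving out 1 library kept 138 of 276 and reversed 0. Counts of higher members moved with the setting as follows, and the cause was not tested. With library totals they were 9 in nup136, 16 in nup82 nup136 and 12 for nup136 added to nup82, and 6 were lower for nup50c added to nup82 nup136. The Wald test gave 8, 13 and 12 for the first 3. The replicate block gave 11 higher for nup136 added to nup82 and 5 lower for nup50c added to nup82 nup136; it changed no other call count by over 1.5 times. Without the filter nup82 had 1 higher. Families summed (21 tested features, fewer by construction) gave 1 for nup136, 3 for nup50c nup136, 4 for nup82 nup136, 8 and 7 for nup136 added to nup50c and to nup50c nup82, and 0 lower for nup82 added to nup50c nup136. Fitting only the genotypes compared gave 5 in nup82 nup136, 15 in the triple mutant and 19 for nup136 added to nup50c nup82. The contrast of the nup136 effect between nup50c nup82 and wild type had 1 higher with DESeq2 size factors, with family sums and in the Wald test, and 1 higher and 1 lower without the filter. Leaving out 1 library gave ranges of 3 to 4 higher in the triple mutant, 0 to 7 for nup136, 1 to 5 for nup50c nup136, 1 to 8 for nup82 nup136, 5 to 14 (1 to 2 lower), 0 to 7 and 7 to 9 for nup136 added to nup50c, nup82 and nup50c nup82, 0 to 2 lower for nup82 added to nup50c nup136, 1 to 2 lower for nup50c added to nup82 nup136, and 0 to 1 each way in that contrast. With 2 libraries per genotype and a shift of the members of up to 0.13 between libraries of a genotype, changes below about that size are not resolved.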
